A study of Mus musculus with 8 samples.

Results

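The genes described here are the cytosolic heat shock proteins and the heat shock factors of mouse testis. They comprised 10 genes of the 20722 named in the data, chosen by symbol: the testis forms Hspa2, Hspa1l and Hspa4l, and the general members Hspa1a, Hspa1b, Hspa8, Hsp90aa1, Hsph1, Hsf1 and Hsf2. They were represented by 23 of the 45101 probe sets of the Affymetrix Mouse430_2 array, and all 23 entered the tests, since no filter on low values was used. The samples were 8 testes at postnatal day 23, labelled wildtype (5 arrays, replicates 1, 2, 4, 6 and 7) or CTCFL mutant (3 arrays, replicates 3, 5 and 8), with 1 array each. By the study's text the mutants were homozygous for Ctcfl del, an allele that lacks exons 1 to 8 after excision with an Actin-Cre transgene and still carries a Gfp sequence. The same text calls the controls Ctcfl del/+ littermates, so the samples labelled wildtype may carry 1 copy of the deletion, and Ctcfl itself was not analysed here as a check of the labels. The labels do not say whether each array came from a separate animal, so the p-values measure the spread between these samples.

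Heat shock proteins are chaperones, which bind unfolded proteins and help them reach or regain their shape. HSP70 proteins do so in cycles of ATP binding and hydrolysis that J-domain (DNAJ) proteins start and that exchange factors, among them the large HSP110 relatives, complete, and clients can then pass to HSP90. In most cells the heat shock factors raise the transcription of the inducible members under stress, whereas male germ cells also make forms of their own during meiosis and spermatid formation, without stress.

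The levels are log2 values after RMA and quantile normalization, and a difference of 1 is a doubling. They can be compared between arrays for 1 probe set but not between probe sets. Median levels of the 8 arrays lay between 6.40 and 6.45. On the first principal component 2 arrays were separate, wildtype replicate 7 with a score of 40.2 and mutant replicate 8 with 38.2, where the others lay between -24.8 and -3.1. Over 12 markers of elongating spermatids, the mean level was 11.42 and 10.98 on these 2 arrays and between 9.06 and 9.77 on the others. None of the 12 was below the median of all probe sets over the 8 arrays, as was also true of 11 spermatocyte and 12 Sertoli cell markers, so the defining markers of testis were present. In whole testis, fewer cells of a type and less RNA per cell cannot be told apart.

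No member differed by genotype beyond the spread between arrays. With limma fitted over all 45101 probe sets, 0 of the 23 member probe sets and 0 of all probe sets (0%) passed an adjusted p of 0.05. At an unadjusted p under 0.05 the count of members was also 0 of 23, beside 3.47% of all probe sets, of which 1.76% were higher and 1.70% lower in mutants. Wildtype and mutant values overlapped for all 23 member probe sets, whereas they did not overlap for 2.70% of all, with 1.38% higher and 1.31% lower in mutants. Among the main probe sets, 1 per gene, 4 had a higher and 6 a lower mean in mutant testis, with a median log2 difference of -0.013 beside 0.0032 over all probe sets. The exact two-sided permutation p of the 10 genes lay between 0.214 and 1.0, where 5 against 3 arrays allow no value below 0.0357 in this form of the test.

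**Figure D1:**
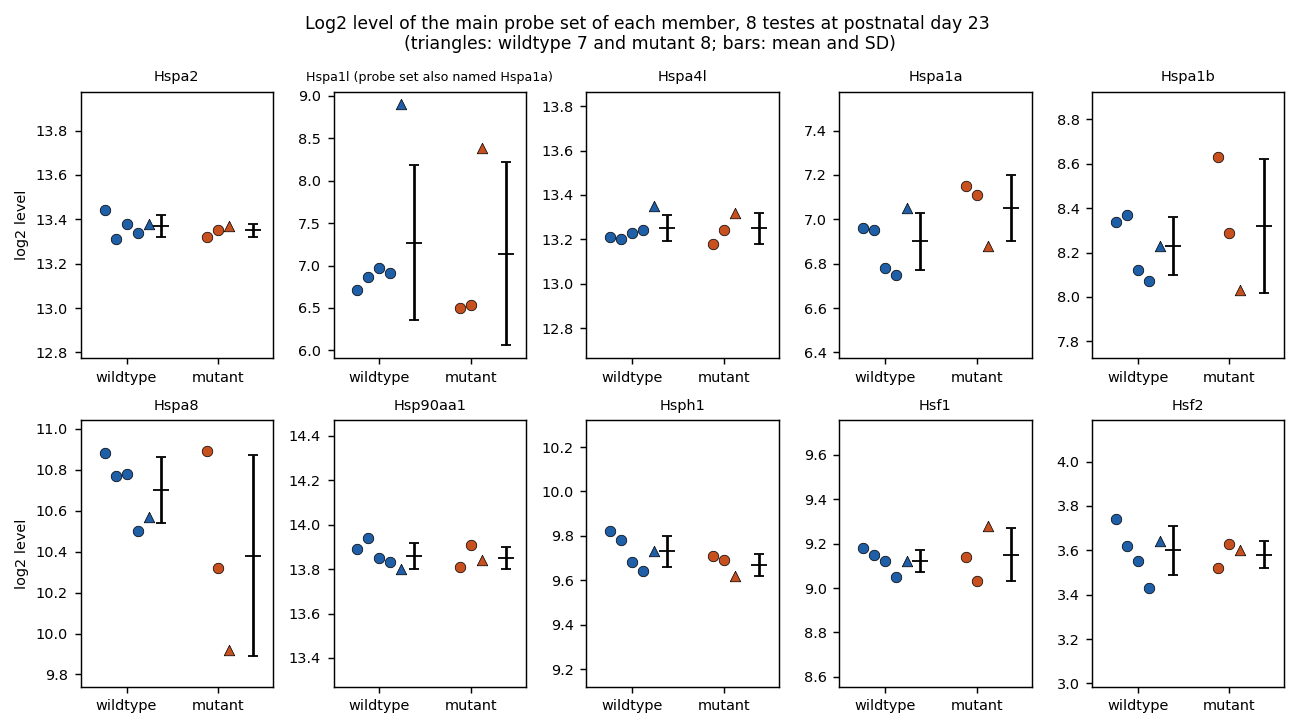
Log2 level (vertical axis) of the main probe set of each of the 10 members in 5 wildtype and 3 mutant testes, 1 symbol per array, with triangles for wildtype replicate 7 and mutant replicate 8 and bars for the group mean and SD; each panel has its own vertical scale. The 2 triangles of Hspa1l, at 8.90 and 8.39, lie far above its other 6 arrays, which sit between 6.50 and 6.97, while Hspa2 stays between 13.31 and 13.44 on all 8.

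Of the testis forms, Hspa2 encodes the HSP70 protein of meiotic spermatocytes, which is needed for their exit from meiotic prophase. Its 1 probe set read 13.44, 13.31, 13.38, 13.34 and 13.38 on the wildtype arrays in the order of their numbers, and 13.32, 13.35 and 13.37 on the mutant arrays. All 8 values lay within 0.13 on the log2 scale, and the SD over the 8 arrays, 0.040, was at percentile 1.07 among all probe sets. The log2 difference of mutant minus wildtype was -0.022, with an SE of 0.06 and an adjusted p of 1.0 by limma. The mean over 11 spermatocyte markers also spanned little, from 10.99 to 11.30. The mean level of Hspa2 was at percentile 99.7 of all probe sets, and whether this end of the scale narrows differences was not tested.

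Hspa4l encodes an HSP110 relative, an exchange factor for HSP70 that is abundant in spermatocytes and spermatids. Its main probe set read 13.21, 13.20, 13.23, 13.24 and 13.35 in wildtype and 13.18, 13.24 and 13.32 in mutant testis. The highest value of each group was that of wildtype replicate 7 and of mutant replicate 8, yet these lay only 0.13 and 0.11 above the mean of the other arrays of their genotype. The log2 difference between genotypes was 0.0001, with an SE of 0.07 and an adjusted p of 1.0 by limma. The other probe sets of Hspa4l, at mean wildtype levels of 11.84 and 8.55, differed by -0.068 (SE 0.07) and -0.034 (SE 0.11). On these 2 probe sets the departure of wildtype replicate 7 was -0.058 and -0.052 and that of mutant replicate 8 was 0.15 and -0.099. The small rise of the main probe set on wildtype replicate 7 was thus not shared. That on mutant replicate 8 was shared only by the probe set at 11.84.

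Hspa1l encodes the HSP70 protein of spermatids. Its only probe set also carried the symbol Hspa1a, but the file defines it as heat shock protein 1-like and lists for it another Ensembl gene than for the probe set of Hspa1a alone. It read 6.71, 6.87, 6.97, 6.91 and 8.90 on wildtype replicates 1, 2, 4, 6 and 7, and 6.50, 6.54 and 8.39 on mutant replicates 3, 5 and 8. Wildtype replicate 7 and mutant replicate 8 were thus above all the others, by 2.03 and 1.87 against the remaining arrays of their own genotype, or 4.09- and 3.65-fold. Both arrays lay above the other 6 for 8.60% of all probe sets, and both departed by at least 1 for 0.783%. The probe set of Hspa1a alone departed by 0.19 and -0.25 on the same arrays, in opposite directions.

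Over all 8 arrays, Hspa1l averaged 7.27 ± 0.91 (SD, n = 5) for wildtype against 7.14 ± 1.08 (SD, n = 3) for mutants, a log2 difference of -0.13 with an SE of 0.56 and an adjusted p of 1.0 by limma. Within each set of arrays the mutant values were lower. Among the 6 arrays that lay together, both mutant values were below all 4 wildtype values, by 0.35 on average (difference -0.35, limma unadjusted p of 0.00395 and adjusted p of 0.751). In this setting 2956 of the 45101 probe sets had a limma unadjusted p under 0.05. How many probe sets had genotypes without overlap among the 6 arrays was not counted. Mutant replicate 8 differed from wildtype replicate 7 by -0.51, from 1 array each. With the 2 arrays as a block, Hspa1l differed by -0.39 (SE 0.08) at a limma unadjusted p of 0.000498 and an adjusted p of 0.698, so it did not pass in either setting. The block was defined from expression values and no label names it. With it, an unadjusted p under 0.05 was reached by 5.86% of all probe sets (3.03% with a higher and 2.83% with a lower mutant mean), and 1 probe set (0.00222%) passed the adjusted threshold. Of the 23 member probe sets 2 had such an unadjusted p, that of Hspa1l and, in the other direction, 1 of Hspa8 that is shared with other loci.

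The mean level of the elongating spermatid list differed between mutant and wildtype by -0.42 among the 6 arrays. It differed by -0.44 between mutant replicate 8 and wildtype replicate 7. Among the 6 arrays its genotypes overlapped, with mutant replicate 5 at 9.23 and wildtype replicate 1 at 9.20. The same 2 differences were -0.19 and -0.073 for the round spermatid list and -0.34 and -0.018 for the fat cell list. On wildtype replicate 7 and mutant replicate 8, 11 of the 12 elongating spermatid markers lay above the other 6 arrays. They were led by Tnp2, a transition protein of spermatid chromatin, with departures of 3.90 and 3.60. The exception was Ldhal6b. Of 11 round spermatid markers, 8 lay above, and so did 7 of 9 fat cell markers, whose mean was 7.13 and 7.11 on these arrays and between 5.75 and 6.22 on the others. The part of either cell type in the level of Hspa1l was not tested. The 3 genes whose pattern over the 8 arrays was most like that of Hspa1l were Fam166a, Chn2 and Cdyl, with Pearson's r of 0.999, 0.998 and 0.997. As these values reflect the 2 separate arrays, r was also taken over the other 6, where it was 0.983, 0.966 and 0.992, and 585 of 12326 genes had an r above 0.9 with Hspa1l over all 8. The correlations describe these arrays and have no test.

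**Figure D2:**
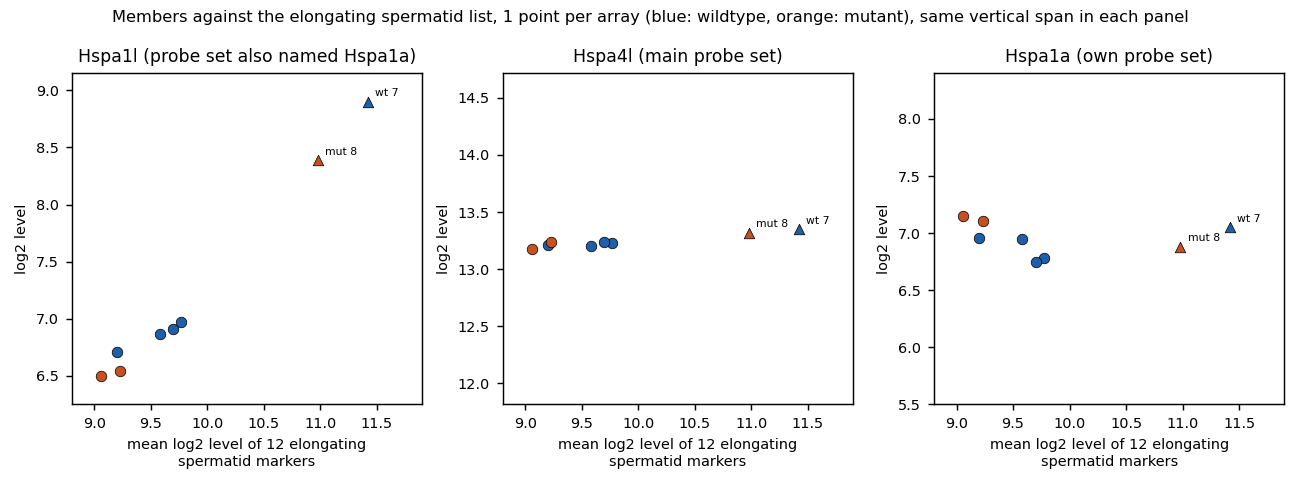
Log2 level of the main probe set of Hspa1l, Hspa4l and Hspa1a (vertical axes, equal spans) against the mean log2 level of 12 elongating spermatid markers (horizontal axis), 1 point per array, wildtype in blue and mutant in orange, with triangles for wildtype replicate 7 (wt 7) and mutant replicate 8 (mut 8). Hspa1l was lowest on mutant replicate 3 (6.50), which also had the lowest marker mean (9.06), and highest on wildtype replicate 7 (8.90 and 11.42), whereas Hspa4l stayed between 13.18 and 13.35 and Hspa1a between 6.75 and 7.15.

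Hspa1a and Hspa1b encode the stress-inducible HSP70 and lie with Hspa1l in 1 cluster on chromosome 17. In RefSeq (GRCm38.p6) the annotated starts of Hspa1l and Hspa1a are 547 bases apart and point away from each other. The RefSeq promoter table held 7 of the 10 members, of which the 150 bases before the start are shown for the 3 genes of the cluster and for Hspa2, since Hspa1l was high on wildtype replicate 7 and mutant replicate 8 while none of these other genes lay above the other 6 arrays on both. They come from chr17:34972553-34972702 (plus strand), chr17:34972157-34972306 (minus), chr17:34959239-34959388 (minus) and chr12:76404220-76404369 (plus), each 5′ to 3′. Capitals mark GAANNTTC, a pair of inverted heat shock element units, or TGACGT, the core of the cAMP response element, on either strand.
Hspa1l: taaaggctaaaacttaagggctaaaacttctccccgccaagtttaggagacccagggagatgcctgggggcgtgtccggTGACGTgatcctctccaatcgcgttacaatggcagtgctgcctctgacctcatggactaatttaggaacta
Hspa1a: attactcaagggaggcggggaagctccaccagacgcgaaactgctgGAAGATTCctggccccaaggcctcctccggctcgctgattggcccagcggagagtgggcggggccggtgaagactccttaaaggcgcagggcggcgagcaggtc
Hspa1b: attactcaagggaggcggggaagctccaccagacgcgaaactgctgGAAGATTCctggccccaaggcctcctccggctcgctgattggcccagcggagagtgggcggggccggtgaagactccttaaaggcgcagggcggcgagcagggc
Hspa2: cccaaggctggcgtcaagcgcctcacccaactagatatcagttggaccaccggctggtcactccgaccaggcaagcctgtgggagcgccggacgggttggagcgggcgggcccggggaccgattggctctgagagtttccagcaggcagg

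The windows of Hspa1a and Hspa1b differed at 1 of these 150 letters and at 4 of the 300 in the table, and each held GAANNTTC at position -104 from the start. GAANNTTC was present in 7.86% of all 32851 promoter windows of 300 bases, and its other phase, TTCNNGAA, in 8.52%. Of the 7 members in the table, 3 held either of them, Hspa1a, Hspa1b and Hsph1, beside 15.1% of all windows. The 3-unit element, in which GAANNTTC and TTCNNGAA overlap by a shared unit so that GAA and TTC alternate, was present in 0.603% of all and among these 7 members in Hsph1 only. TGACGT, present in 7.51% of all, was found among the 7 in Hspa1l only, at position -71. CCAAT was searched as well and was present in 37.4% of all windows. Among the members it was found in Hspa1l, Hspa1a, Hspa1b, Hspa2, Hsf2 and Hsph1. These matches describe the letters of the windows, and whether any of them bears on the level of a gene was not tested.

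Hspa1a had its highest values on mutant replicates 3 and 5. It read 6.96, 6.95, 6.78, 6.75 and 7.05 in wildtype and 7.15, 7.11 and 6.88 in mutant testis, where the third value lay within the wildtype range. The log2 difference was 0.15, with an SE of 0.10, an adjusted p of 1.0 by limma and an exact two-sided permutation p of 0.214. The log2 difference of Hspa1a was 0.093 without mutant replicate 3 and 0.23 without mutant replicate 8. Without both wildtype replicate 7 and mutant replicate 8 it was 0.27, with an SE of 0.09 and limma's unadjusted p of 0.0166 and adjusted p of 0.751.

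All 3 probe sets of Hspa1b had their highest value on mutant replicate 3. The main one read 8.34, 8.37, 8.12, 8.07 and 8.23 in wildtype and 8.63, 8.29 and 8.03 in mutant testis. Mutant replicate 3 was above and mutant replicate 8 below all wildtype arrays. The log2 difference was 0.091 (SE 0.13), but -0.064 without mutant replicate 3 and 0.23 without mutant replicate 8, whether or not wildtype replicate 7 was kept. On the second probe set, mutant replicate 3 read 7.98 and the other 7 arrays lay between 7.18 and 7.44, and on the third it read 8.22 against 7.47 to 7.83. These probe sets differed by 0.22 (SE 0.15) and 0.082 (SE 0.15), and for all 3 the adjusted p by limma was 1.0. Hspa1a and Hspa1b are near-identical genes, and how far their probe sets share transcripts was not tested.

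A list of 20 immediate early and related genes, many of which handling or stress of tissue can raise within minutes, was read beside the inducible genes. Its mean level was 6.93 to 6.96 on wildtype and 7.02 to 7.09 on mutant arrays, without overlap, and 16 of its 20 genes had a higher mean in mutant testis, beside 23219 of 45101 probe sets. All 3 of its genes with a limma unadjusted p under 0.05 were higher, beside 1.76% of all probe sets. It was the 1 list of 11 marker and stress lists whose groups did not overlap. Of its genes, Junb, a subunit of the AP-1 transcription factor, differed by 0.43, with an SE of 0.10 and an adjusted p of 1.0 by limma. Fosb, Atf3, Dusp1 and Klf4 had a lower mean in mutant testis, by -0.068, -0.019, -0.015 and -0.14. Of the 20 genes, 7 were below the median level of all probe sets. On wildtype replicate 7 and mutant replicate 8, 3 of the 20 lay above and 2 below the other 6 arrays. Whether stress, handling or cell content underlies the list was not tested. Mutant replicate 3 also had the highest means of the Leydig and Sertoli lists, at 8.56 against at most 8.27 and 9.56 against 9.45. The same held for peritubular cells, at 8.24 against 8.17, and for macrophages, at 7.90 against 7.88. Other somatic lists did not share this. On this array the fat cell mean was the lowest of all, 5.75, and the endothelium mean, 6.67, lay within the range of the others, 6.63 to 6.72. Mutant replicate 3 had the lowest means of the round and elongating spermatid lists, 9.80 and 9.06. The part of these lists in the values of Hspa1a and Hspa1b was not tested.

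Hspa8 encodes the constitutive HSP70 of all cells. Its main probe set read 10.88, 10.77, 10.78, 10.50 and 10.57 in wildtype and 10.89, 10.32 and 9.92 in mutant testis. Mutant replicates 5 and 8 were below all wildtype arrays and mutant replicate 3 above them. The log2 difference was -0.32, with an SE of 0.19, an adjusted p of 1.0 by limma and an exact two-sided permutation p of 0.250. Its size rested on single arrays, with -0.58 without mutant replicate 3 (limma unadjusted p of 0.0022, adjusted p of 1.0) and -0.097 without mutant replicate 8. Without mutant replicate 3, 1856 of the 45101 probe sets had a limma unadjusted p under 0.05. Without both wildtype replicate 7 and mutant replicate 8 the log2 difference of Hspa8 was -0.13. On both other probe sets named for Hspa8 alone, mutant replicate 8 was also the lowest array, at 12.03 and 11.66, and the genotype differences were -0.026 (SE 0.12) and -0.15 (SE 0.13). A further probe set, which also carries the names of 3 other loci, was low, at 5.25 in wildtype, and differed the other way, by 0.22 (SE 0.11). The probe sets named for Hspa8 alone were therefore all lower on average in mutant testis but differed in size. Only the low probe set shared with other loci went the other way. All of these differences were within the spread between arrays.

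Hsph1 encodes HSP105, the stress-responsive HSP110 relative. Its main probe set read 9.82, 9.78, 9.68, 9.64 and 9.73 in wildtype and 9.71, 9.69 and 9.62 in mutant testis, with a log2 difference of -0.055 (SE 0.07). The groups overlapped, and the second probe set differed by -0.037 (SE 0.09). On this second probe set wildtype replicate 7 was the highest array, at 8.94, and mutant replicate 8 read 8.79, which was within the range of the others.

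Hsp90aa1 encodes the inducible HSP90 alpha, which spermatocytes need to complete meiosis. Its main probe set read 13.89, 13.94, 13.85, 13.83 and 13.80 in wildtype and 13.81, 13.91 and 13.84 in mutant testis, a log2 difference of -0.011 (SE 0.06). The values of both groups ran through the same range. The other 4 probe sets of Hsp90aa1 differed by between -0.17 and -0.0035, all lower in mutant testis. The one at -0.17 (SE 0.08) had the lowest limma unadjusted p of all member probe sets, 0.0672, at a low level of 4.70 in wildtype.

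The heat shock factors are the transcription factors of the family. Hsf1, which drives the stress response, read 9.18, 9.15, 9.12, 9.05 and 9.12 in wildtype and 9.14, 9.03 and 9.28 in mutant testis. The lowest and the highest of these values were both mutant, and the log2 difference was 0.026 (SE 0.07). Hsf2, a factor of spermatogenesis, read 3.74, 3.62, 3.55, 3.43 and 3.64 in wildtype and 3.52, 3.63 and 3.60 in mutant testis. Its mean level was at percentile 3.74 of all probe sets, and its difference was -0.015 (SE 0.08). So near the lowest levels of the arrays, this probe set says little about Hsf2 in either genotype. The other Hsf2 probe set, also named for 9630030I15Rik, had a level of 6.41 ± 0.12 (SD, n = 5) and 6.57 ± 0.19 (SD, n = 3) and differed by 0.16, with an SE of 0.10 and an adjusted p of 1.0 by limma.

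**Figure D3:**
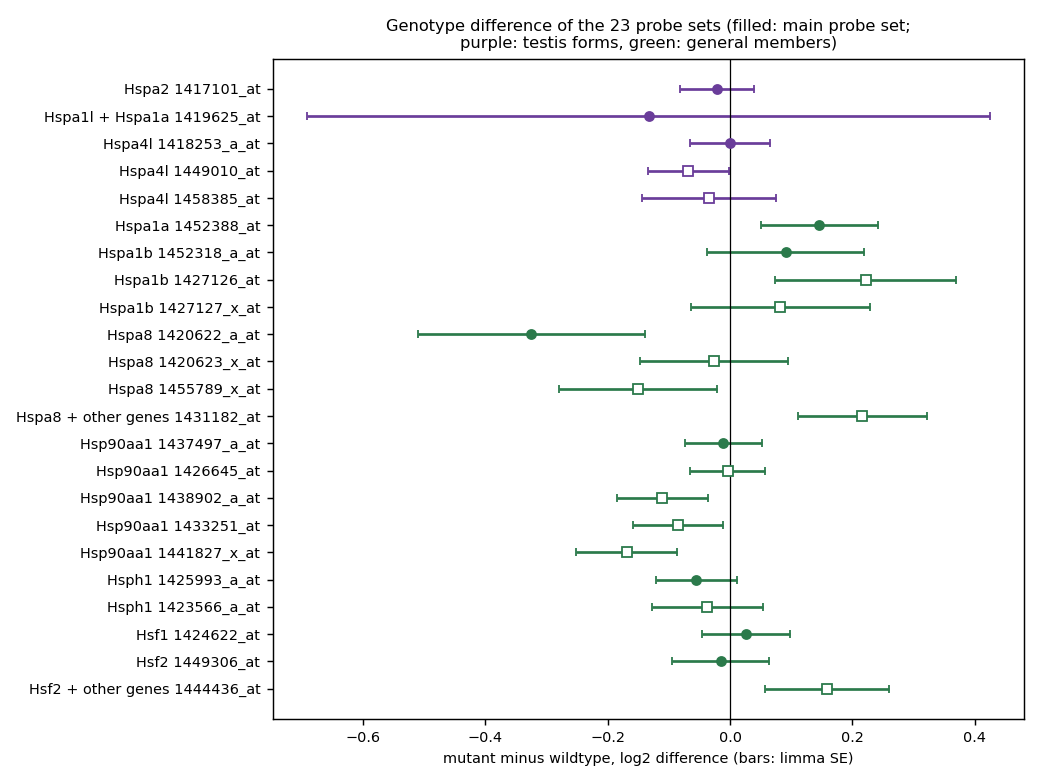
Mutant minus wildtype log2 difference (horizontal axis) of each of the 23 member probe sets, with the limma SE as bars, filled circles for main probe sets, open squares for the others, purple for testis forms and green for general members. The points lie between -0.32 (Hspa8) and 0.22 (Hspa1b), and the widest bar, 0.56, is that of the Hspa1l probe set.

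Testis forms and general members were then set against each other. For each array, the departures from the wildtype mean were averaged over the 3 testis forms and over the 7 general members, and the second mean was subtracted from the first. The resulting contrast was -0.27, -0.23, -0.065, -0.0072 and 0.58 on the wildtype arrays and -0.40, -0.23 and 0.54 on the mutant arrays. Wildtype replicate 7 and mutant replicate 8 had the 2 highest values, and the genotypes overlapped, with a difference of -0.031 between means and an SD of 0.34 (n = 5) and 0.50 (n = 3). The median log2 difference was -0.022 for the testis forms and -0.011 for the general members. Once Hspa1l was left out, the contrast read 0.054 for wildtype replicate 7 and 0.18 for mutant replicate 8, while the other wildtype arrays lay between -0.12 and 0.11 and the genotype difference was 0.0097. The high contrast of wildtype replicate 7 thus came from Hspa1l among the 3 testis forms. No test was made of this contrast, as the members were chosen with results of these data known.

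Other chaperone genes were read from 7 lists with 70 of 73 genes measured, mostly cytosolic, but including Hspa9 of mitochondria and Hspa13 of the endoplasmic reticulum. With limma, 0 of the 70 passed an adjusted p of 0.05 and 1 had an unadjusted p under 0.05, or 1.43% beside 3.47% of all probe sets. It was Hspb7, a small heat shock protein best known from heart muscle, at 7.21 ± 0.17 (SD, n = 5) for wildtype against 7.51 ± 0.09 (SD, n = 3) for mutants, a difference of 0.29 with an SE of 0.10 and an adjusted p of 1.0 by limma. With wildtype replicate 7 and mutant replicate 8 as a block, 6 of the 70 had an unadjusted p under 0.05, beside 5.86% of all probe sets, and again 0 passed the adjusted threshold. Of these 6, Hsfy2 (-0.33), Dnajb7 (-0.31), Dnajb8 (-0.28) and Odf1 (-0.27) were lower and Hspb7 (0.27) and Cryab (0.25) higher in mutants, and Cryab was named after its values had been seen. The median difference over the 70 genes, without the block, was -0.0072, with 32 higher and 38 lower in mutant testis.

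Each list held values on both sides. Among 6 further HSP70 genes the differences ran from -0.11 for Hspa13 to 0.081 for Hspa14, among 16 DNAJ genes from -0.13 for Dnajb8 to 0.094 for Dnajb5, and among 8 exchange factors and HSP70 partners from -0.093 for St13 to 0.11 for Bag3. Among 16 HSP90 partners they ran from -0.11 for Ahsa2 to 0.087 for Pih1d1, and among 10 small heat shock proteins from -0.19 for Hspb3 to the 0.29 of Hspb7. The 9 genes of the CCT chaperonin, the ring that folds actin and tubulin, lay between -0.094 for Cct8 and 0.085 for Cct6b, its testis form. The 5 further factors and factor-binding genes lay between -0.15 for Hsfy2 and 0.018 for Hsbp1. None of these passed an adjusted p of 0.05 with limma.

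On wildtype replicate 7 and mutant replicate 8 some of these genes departed as Hspa1l did. Of the 70 genes, 9 (12.9%) lay above the other 6 arrays on both, beside 8.60% of all probe sets, and 7 of 70 lay below, beside 10.3%. A departure of at least 1 on both was seen for 4 (5.71%), beside 0.783%. These 4 were Dnajb7 with 1.98 and 2.02, Dnajb8 with 1.22 and 1.07, Dnajc5b with 1.26 and 1.38, and Hsfy2 with 1.27 and 1.36, and Dnajb7 and Dnajc5b were named after their values had been seen. The lists were chosen with earlier results of these data known and hold genes known for testis. The shares of the 70 therefore depend on which genes were listed and are no test. Of the genes known for testis, Odf1, an outer dense fiber protein of the sperm tail and small heat shock protein relative that is also on the elongating spermatid list, departed by 0.95 and 1.09, and Dnajb13, a J-domain protein of the axoneme, by 0.45 and 0.66. Hspb9 departed by 0.25 and 0.088, and Dnajb3 by 0.056 and 0.21. Cct6b, at 0.017 and -0.071, and Fkbp6, an HSP90-binding protein of meiotic cells, at -0.14 and -0.093, showed no common rise on these arrays. Hsp90ab1, the constitutive HSP90 beta, was below the other 6 arrays on both, by -0.45 and -0.34, and was likewise named after its values had been seen.

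**Figure D4:**
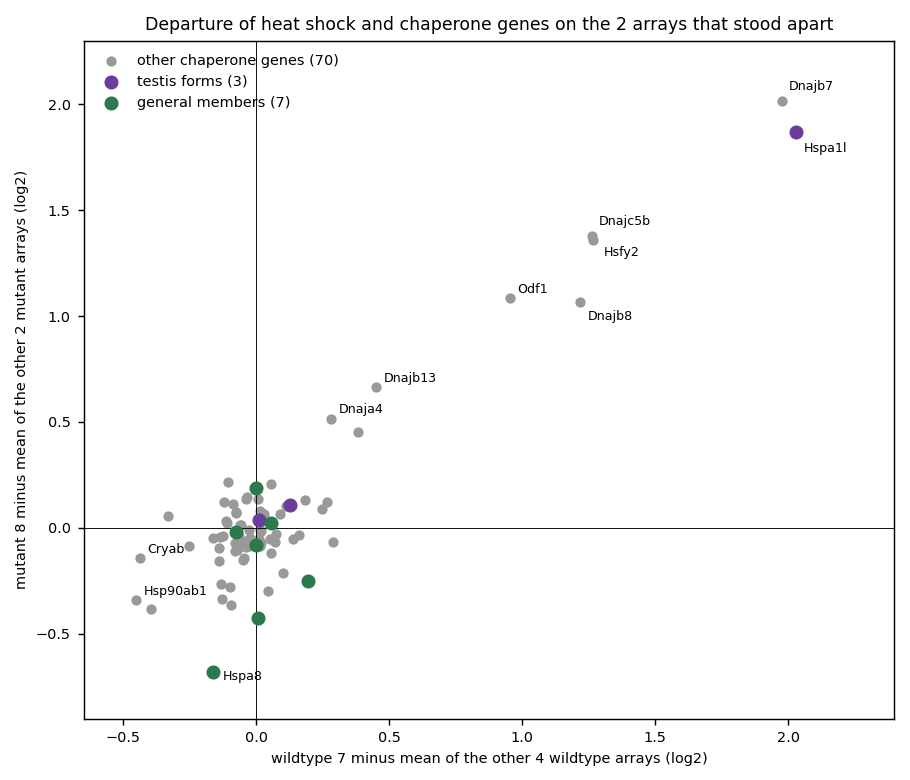
Departure of wildtype replicate 7 from the mean of the other 4 wildtype arrays (horizontal axis, log2) against that of mutant replicate 8 from the mean of the other 2 mutant arrays (vertical axis, log2), for the 3 testis forms (purple), the 7 general members (green) and 70 other chaperone genes (gray). Hspa1l, at 2.03 and 1.87, lies beside Dnajb7 at the upper right, while Hspa2 (0.011 and 0.038) and Hspa4l (0.13 and 0.11) lie near 0 and the lowest general member, Hspa8, lies at -0.16 and -0.68.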

How the data were processed

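Total RNA from testis was hybridized to Affymetrix Mouse430_2 arrays. Per the study's methods and the labels, the authors applied RMA background correction and quantile normalization and deposited log2 levels for each probe set on each array. Software versions and the annotation's genome build are not given in the sources used here. Deposited columns of the authors' own comparisons (group means, fold changes, p-values and limma output) were not used. Groups came from sample titles.

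Member probe sets were found by the Symbol column. Other genes were named by Entrez ID in the RefSeq list of GRCm38.p6 (33637 matches among 36926 probe sets with 1 ID), or else by the file's symbol. The main probe set of a gene has no _s_at or _x_at suffix where possible, then the highest mean level. After the table was seen, probe sets naming 1 gene were put first. All 45101 probe sets were fitted for genotype with lmFit and eBayes of limma 3.58.1 under R 4.3.3; p-values were two-sided and adjusted by Benjamini-Hochberg, after the fit had been tested on simulated data. The exact permutation test used all 56 splits of the 8 arrays. Other steps used Python 3.11.15, numpy 2.4.6, pandas 2.3.3, scipy 1.17.1 and matplotlib 3.10.9. Named genes were all members, the highest and lowest difference of each pathway list, its genes known for testis, and the 3 genes most like a member. The members and lists were chosen with earlier results of these data known. No depth applies to arrays, and their number limits the precision. Alternatives were leaving out arrays, a block, centring, repeated quantile normalization, an offset of 50 on the linear scale, array weights, a robust prior with an intensity trend, a level filter and all probe sets of a gene.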

Additional observations from a re-analysis of the deposited data

Results flagged for a closer look

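In the wildtype group of 5, 1 array lay far from its nearest neighbor for 7 of 37 measures. For independent measures chance gives about 1 in 20, or 1.85. The measures share genes and arrays and were chosen with earlier results of these data known, so this number is no test. Wildtype replicate 7 was the far array for 5 of the 7, and these 5 overlap. The Hspa1l probe set read 8.90 there and 6.97 on the nearest wildtype array, and the mean departure of the testis forms, which holds Hspa1l, was 0.58 against -0.10. The main probe set of Hspa4l read 13.35 against 13.24. The mean level of the elongating spermatid list was 11.42 against 9.77, and that of the fat cell list 7.13 against 6.22. Wildtype replicate 2 stood out for 1 further probe set of Hspa4l, at 8.82 against 8.51, and wildtype replicate 6 for 1 of Hspa8, at 11.86 against 12.11. With 3 arrays, the mutant group was not examined in this way.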

How the results depend on the processing

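No paired analysis was possible, because the labels name no litter or pair, although the study's text calls the animals littermates. The replicate numbers run on over both genotypes and carry no pairing. No member passed an adjusted p of 0.05 under any alternative run. The number of all probe sets past it, 0, was 1 with the block of wildtype replicate 7 and mutant replicate 8. At an unadjusted p under 0.05, the 1564 probe sets became 2956 without these 2 arrays, 2644 with the block and 707 among probe sets above the median level, where fewer were tested, and 1220 to 2649 leaving out 1 array, the last without mutant replicate 8. The number of member genes, 0, became 2 without both arrays (Hspa1l and Hspa1a), 1 with the block (Hspa1l), 1 with array weights (Hspa1a), and 0 to 1 leaving out 1 array (Hspa8 without mutant replicate 3, Hspa1a without mutant replicate 8).

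The median difference of the testis forms ranged from -0.036 to 0.035 leaving out 1 array. That of the general members ranged from -0.039 to 0.022, and reversed to 0.0075 above the median level and 0.026 over all probe sets of a gene. The contrast of testis forms and general members ranged from -0.31 to 0.15, reversing without wildtype replicate 7 (0.11), mutant replicate 3 (0.15) or mutant replicate 5 (0.068), and was 0.0097 without Hspa1l, an alternative chosen after seeing the data. Hspa4l reversed to -0.010 without both arrays, -0.016 with the block, -0.0040 after centring, -0.0012 with array weights and -0.034 over its probe sets. Hsf1 reversed to -0.037 without both arrays and -0.012 with array weights, and Hsf2 to 0.0002 with array weights and 0.072 over its probe sets. Leaving out 1 array gave -0.036 to 0.035 for Hspa4l, -0.037 to 0.084 for Hsf1, -0.056 to 0.022 for Hsf2, -0.76 to 0.27 for Hspa1l, -0.064 to 0.23 for Hspa1b and -0.039 to 0.011 for Hsp90aa1. Hspa2, Hspa1a, Hspa8 and Hsph1 kept their direction under the alternatives run. The cause was not tested.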

Other observations

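By the same measure of likeness as for Hspa1l, the genes closest to Hspa4l over the 8 arrays were Ppcdc, Tbc1d14 and 2810408A11Rik, with Pearson's r of 0.994, 0.992 and 0.992, and 641 of 12326 genes had an r above 0.9. Wildtype replicate 7 and mutant replicate 8 were highest for this probe set of Hspa4l. Over the other 6 arrays r was 0.969, 0.995 and 0.941. For Hspa2 they were Jag2, Casp9 and Hoxd8 (0.980, 0.973 and 0.937), with 8 genes above 0.9, and for Hspa1a they were Rundc3b, Pex2 and Klhl23 (0.982, 0.976 and 0.973), with 44 genes above 0.9. The level of Hspa2 spanned 0.13 over the 8 arrays and that of Hspa4l 0.17, so their likeness rests on very small differences. The departure of Hspa4l on wildtype replicate 7 was also not shared by its other probe sets. That on mutant replicate 8 was shared only by the probe set with a mean wildtype level of 11.84. These correlations describe the arrays and carry no test.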
